A study of Mus musculus with 12 samples.

Results

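The interaction of TGFβ and retinoic acid was measured in mouse CD8 T cells, over 12 of the 12 RNA-seq libraries of the series and every gene that passed a count filter, 14009 of the 46078 genes listed. The cells came from the spleens of C57BL/6 mice, were cultured, and gave RNA on day 7. Every culture, the controls included, received the cytokines IL-2 and IL-15. The 4 groups of 3 libraries were IL-2 + IL-15 alone, the same with all-trans retinoic acid (RA), the same with TGFβ, and the same with both (TGFβ + RA). The series concerns the making of tissue-resident memory-like CD8 T cells in vitro. The labels call the replicates biological and do not tie a replicate number to 1 animal, and every p-value here reflects only the variation among these 12 libraries, which may be technical. In a bulk culture, fewer cells that express a gene and less RNA per cell cannot be told apart.

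TGFβ is a secreted cytokine that signals through serine/threonine kinase receptors to SMAD transcription factors. In CD8 T cells it is known for inducing the integrin chain CD103 and for holding back effector genes. Retinoic acid is a vitamin A metabolite that binds nuclear receptors (RAR and RXR), which sit on DNA as pairs, and gut dendritic cells use it to imprint gut homing on T cells. In CD4 T cells the pair is known for inducing the regulatory factor FOXP3.

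The interaction is the RA effect with TGFβ present (TGFβ + RA minus TGFβ) minus the RA effect without it (RA minus IL-2 + IL-15), in log2 units. Read the other way, it is the TGFβ effect with RA minus the TGFβ effect without RA. An interaction of 0 means that the fold changes of RA and TGFβ multiply, a positive value that TGFβ + RA lay above that product, and a negative value that it lay below. A gene was called at an adjusted p under 0.05 in edgeR's quasi-likelihood test. Called genes were put in exclusive classes. In a reversed gene, RA (or TGFβ, or each) had called effects of opposite sign without and with the other factor. In a synergistic gene, TGFβ + RA was called beyond all 3 other groups in the direction of the interaction. In an antagonistic gene, the interaction ran against a called effect of RA alone, of TGFβ alone or of both. Levels are CPM, the reads of a gene scaled to a common library total after TMM normalization, which adjusted the totals by factors of 0.958 to 1.03.

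Libraries held 18300206 to 33477037 counts. The replicate pairs differed by more than counting noise: chi-square per degree of freedom was 24.0 and 20.4 for the pairs that held RA replicate 3, and 3.79 to 12.5 for all other pairs. Since RA replicate 3 stood apart, its removal is given beside the main counts. T cell receptor and CD8 genes were abundant in every library, and the summed level of 15 CD8 T cell markers was 11297 to 14652 CPM. Cytosolic ribosomal protein genes took 8.09% to 9.50% of counts in the groups without TGFβ, 5.22% to 5.44% with TGFβ and 4.31% to 4.92% with TGFβ + RA.

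TGFβ and RA departed from multiplication at 2702 of 14009 genes, 19.3% of those tested. At 974 genes (6.95%) TGFβ + RA lay above the product and at 1728 genes (12.3%) below it. Among called genes, 883 had an interaction of at least 2-fold, 193 of them higher and 690 lower. Across all tested genes the median interaction was −0.0043. Without RA replicate 3 the same test called 4158 genes, 1654 higher and 2504 lower. With 9 libraries, leaving out IL-2 + IL-15 replicate 1, RA replicate 3 and TGFβ + RA replicate 3, it called 4224, of which 1718 were higher. The libraries left out were chosen after seeing the data. By chi-square per degree of freedom TGFβ + RA replicate 3 did not stand apart, with 6.29 and 4.22 for its pairs. Of the 2702 genes, 2520 were called in the same direction in those 9 libraries and 0 in the opposite one.

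Synergy was the most frequent class, with 1445 genes or 53.5% of those called. That share was 43.0% without RA replicate 3 (1790 genes) and 39.5% with the 9 libraries (1668 genes), where antagonism reached 1488 genes. TGFβ + RA was the lowest group at 982 of them (7.01% of tested genes) and the highest at 463 (3.31%). Antagonism covered 780 genes (28.9%). The interaction ran against RA alone at 165 genes where it was positive (1.18% of tested genes) and 172 where it was negative (1.23%), against TGFβ alone at 125 (0.892%) and 220 (1.57%), and against both at 29 (0.207%) and 69 (0.493%). Without RA replicate 3 the counts against RA alone were 421 and 417, and those against both 59 and 124. Reversal covered 348 genes (12.9%), and 227 of those also met the criterion for synergy. RA was reversed at 51 higher (0.364%) and 101 lower genes (0.721%), TGFβ at 49 (0.350%) and 119 (0.849%), and both at 12 (0.0857%) and 16 (0.114%). The remaining 129 genes met no class, 80 of them higher (0.571%) and 49 lower (0.350%). Among the 982 synergistic genes with lower levels, RA and TGFβ each lowered 215 by themselves, RA alone lowered a further 202, TGFβ alone a further 301, and neither was called at 264. Among the 463 with higher levels, neither single factor was called at 254, TGFβ alone raised 145, RA alone raised 33 and each raised 31.

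**Figure D1:**
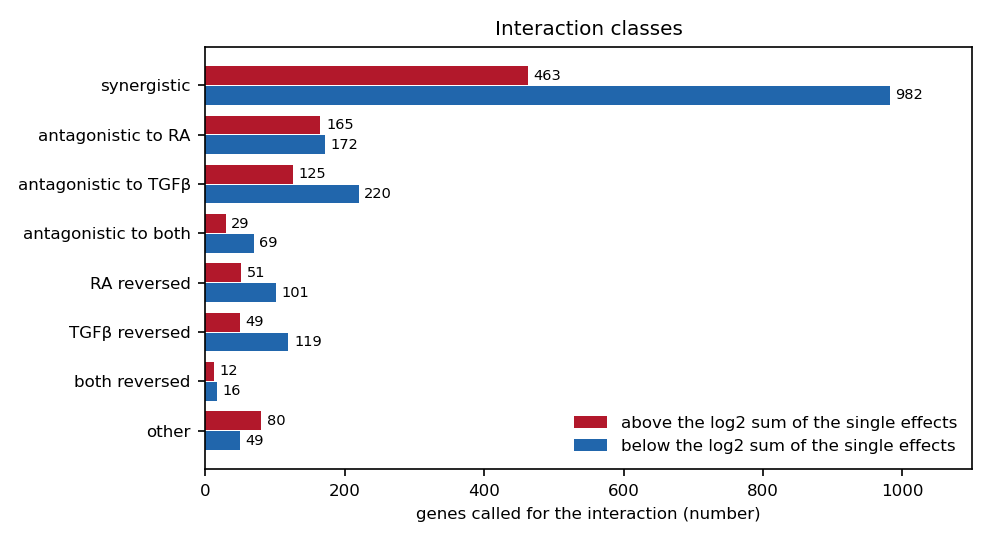
Number of genes (x axis) in each class of the interaction (y axis), split by whether TGFβ + RA lay above (red) or below (blue) the log2 sum of the single effects. Synergistic genes below the sum are the longest bar, with 982 genes against 463 above.

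On median the effect of a factor was larger in the presence of the other. The median size of the RA effect over all tested genes was 0.16 without TGFβ and 0.23 with it, and that of TGFβ was 0.23 without RA and 0.35 with it. RA was called at 3740 genes (26.7%) without TGFβ and at 6029 (43.0%) with it. TGFβ was called at 6034 genes (43.1%) without RA and at 8440 (60.2%) with it. Across genes, which are not independent replicates, the RA effects without and with TGFβ share no library and had a Pearson r of 0.58 (Spearman rho 0.45). For TGFβ without and with RA, r was 0.70 (rho 0.69). All 3 TGFβ + RA libraries lay outside the range of the other 9 at 32.6% of tested genes.

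**Figure D2:**
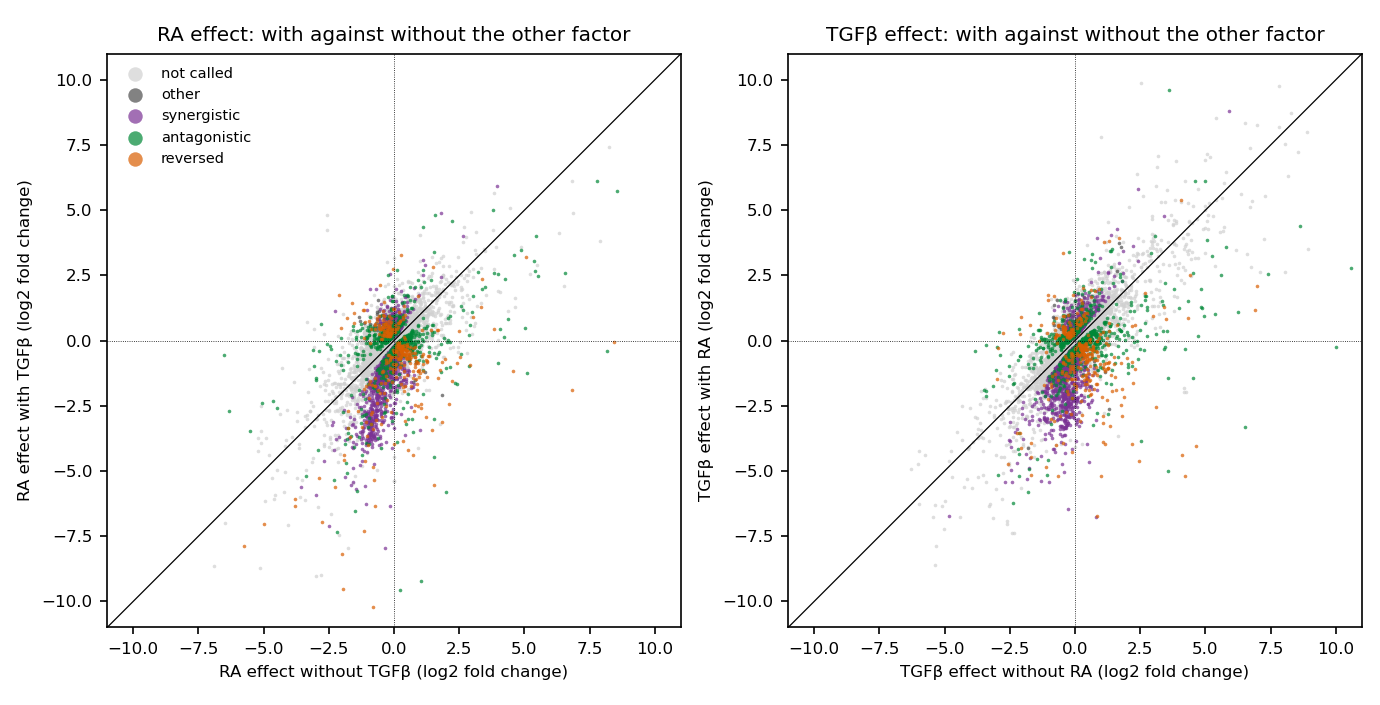
Each point is 1 of the 14009 tested genes: the log2 fold change of RA without (x) and with (y) TGFβ on the left, and of TGFβ without (x) and with (y) RA on the right, coloured by class. On the diagonal the factors multiply; synergistic lower genes form a steep purple limb in the lower left quadrant, and reversed genes fill the off-diagonal quadrants.

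Cell cycle genes were lowered together by the combination. Of 30 listed genes, from replication (Mcm2, Pcna) to mitosis (Aurkb, Plk1), 28 were called for the interaction, all synergistic and all lower, against 12.3% of tested genes called lower. Their median interaction was −1.38. RA alone lowered 27 (14.3% of tested genes) and TGFβ alone 20 (22.4%), with median changes of −0.66 and −0.35, and TGFβ + RA lowered all 30 against IL-2 + IL-15, with a median of −2.52 (63.2% of tested genes were called in that comparison, 32.4% lower). The count called lower was 26 to 29 over the removals of 1 library. Mki67, whose product Ki-67 marks proliferating cells, had 608, 567 and 614 CPM in IL-2 + IL-15, 379, 332 and 262 with RA, 434, 410 and 392 with TGFβ and 38.7, 55.6 and 39.9 with TGFβ + RA. No TGFβ + RA library overlapped another group, and the mean of 44.7 CPM compares with 224 CPM for the product of the single fold changes (interaction −2.32 ± 0.19 SE, adjusted p = 4.0e-06). Cdc20, an activator of the anaphase-promoting complex, had 55.0 CPM in IL-2 + IL-15, 34.8 with RA, 49.9 with TGFβ and 6.92 with both (−2.19 ± 0.17, adjusted p = 3.8e-06). For Cenpf, a kinetochore protein, the 3 TGFβ + RA libraries had 3.02, 6.71 and 4.19 CPM against 36.6 to 78.9 in the other 9. Hmmr, Nuf2 and Depdc1b, which act in the spindle, kinetochore and mitotic exit, were among the 8 largest synergistic decreases, with interactions of −3.00, −2.97 and −3.10. Cdc6, which loads the replicative helicase, fell to 1.48, 1.41 and 1.25 CPM from 23.9 to 29.0 in IL-2 + IL-15 (−2.76 ± 0.22).

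Promoters of the cell cycle list were searched for TTTGAA, the core of the cell cycle gene homology region found at mitotic genes. It was present on either strand in 10 of 26 RefSeq promoters of the cell cycle list (38.5%), in 20.3% of those of synergistic lower genes, in 12.2% of those of all tested genes and in 17.9% of all 32851 promoters. The promoters of Cdc20 (chr4:118437294-118437593, minus strand) and Cenpf (chr1:189688037-189688336, minus strand) are shown from 250 bases before to 50 after the start, in GRCm38.p6, 5′ to 3′, with the match in capitals. The motif was chosen after the results were seen, and a match is a description of the sequence. A list of cell cycle genes would hold this element whatever TGFβ and RA did. Of its 30 genes, 28 are themselves synergistic lower genes, so the shares of the list and of that class overlap.
Cdc20: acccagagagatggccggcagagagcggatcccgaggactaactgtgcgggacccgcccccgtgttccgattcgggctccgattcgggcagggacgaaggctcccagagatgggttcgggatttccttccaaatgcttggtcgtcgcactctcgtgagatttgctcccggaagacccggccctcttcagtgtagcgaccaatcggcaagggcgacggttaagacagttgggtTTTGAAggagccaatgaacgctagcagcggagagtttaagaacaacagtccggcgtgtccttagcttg
Cenpf: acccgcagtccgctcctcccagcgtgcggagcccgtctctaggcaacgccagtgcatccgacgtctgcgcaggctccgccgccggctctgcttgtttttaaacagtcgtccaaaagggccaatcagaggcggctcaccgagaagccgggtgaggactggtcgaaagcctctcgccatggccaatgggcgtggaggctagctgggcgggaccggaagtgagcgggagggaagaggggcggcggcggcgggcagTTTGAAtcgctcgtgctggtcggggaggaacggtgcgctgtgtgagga

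Of 20 glycolytic genes, 12 were called, all synergistic lower (7.01% of tested genes), and 8 were not, with a list median of −0.37. Aldoc, an aldolase, had 110, 109 and 105 CPM in IL-2 + IL-15, 80.4, 87.3 and 75.0 with RA, 65.4, 68.9 and 67.7 with TGFβ and 19.8, 18.2 and 18.4 with both. The groups did not overlap, and the interaction was −1.43 ± 0.08 (adjusted p = 5.4e-07). For Hk2 and Tpi1, a hexokinase and triose phosphate isomerase, RA alone was not called (log2 changes 0.03 and 0.07), while with TGFβ present the RA effects were −0.96 and −0.84. Of 26 cholesterol and fatty acid synthesis genes, 20 were called lower (12.3% of tested genes) and 1 higher (6.95%), with a median of −0.64, and 16 of the 20 were synergistic. Cyp51, a sterol demethylase, had 114 CPM in IL-2 + IL-15, 89.2 with RA, 66.9 with TGFβ and 23.4 with both (−1.16 ± 0.11). Scd2, a fatty acid desaturase, had 1316, 1264, 795 and 423 CPM (−0.85 ± 0.08). Of 78 ribosomal protein genes, 31 were called lower (12.3% of tested genes) and 0 higher, 26 of them synergistic, but the median was only −0.26. That count is unstable: it was 50 without RA replicate 3, 60 with the 9 libraries, and 0 for a change of at least 1.5-fold. Rps20, of the small subunit, had 1018, 907, 669 and 389 CPM (−0.61 ± 0.09).

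**Figure D3:**
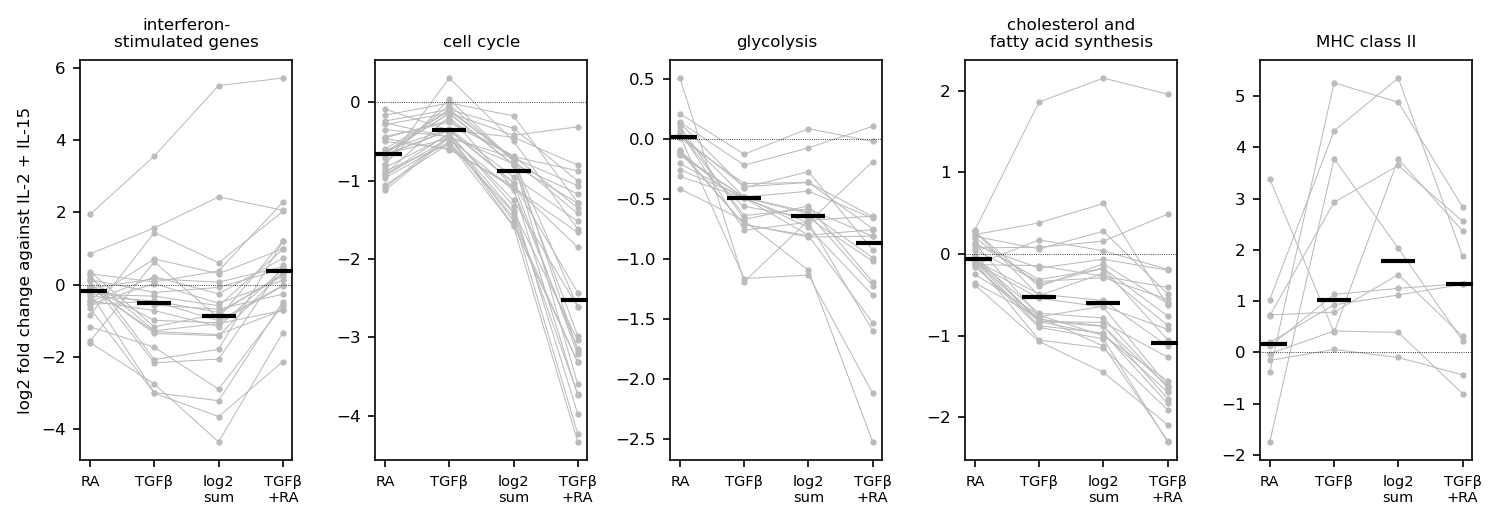
Log2 fold change against IL-2 + IL-15 (y axis) of every tested member of 5 gene lists with RA, with TGFβ, for the log2 sum of these effects and with TGFβ + RA (x axis); grey lines join the values of a gene and black bars are medians. Cell cycle genes reach a median of −2.52 with TGFβ + RA, below the log2 sum, while interferon-stimulated genes reach a median of 0.39, above it.

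Some genes of egress, cytokine reception and adhesion had their lowest level with both factors. Of these lists, 5 of 27 egress genes, 4 of 25 cytokine receptors and 5 of 25 integrin and adhesion genes were synergistic lower, against 7.01% of tested genes. In the same lists 3, 4 and 2 genes were called higher, against 6.95% of tested genes. The lower calls among cytokine receptors are near the 12.3% of all tested genes, so the receptors named below are single examples. S1pr1, the sphingosine-1-phosphate receptor that leads T cells out of tissue, had 280, 287 and 299 CPM in IL-2 + IL-15, 148, 104 and 125 with RA, 328, 298 and 303 with TGFβ and 26.4, 25.1 and 32.5 with both. TGFβ alone was not called (log2 change 0.10, adjusted p = 0.47), while with RA present its effect was −2.17, and the interaction was −2.27 ± 0.16 (adjusted p = 1.9e-06). Il7r and Il2rb, receptor chains for IL-7 and for IL-2 and IL-15, behaved alike: neither single factor was called, and both factors gave 408 CPM of Il7r against 743 to 811 in the other group means, and 489 CPM of Il2rb against 988 to 1072. Ly6c2, a marker of circulating memory cells, had 1586 CPM in IL-2 + IL-15, 723 with RA, 751 with TGFβ and 90.6 with both, where multiplication gives 342 (−1.91 ± 0.23). Itgal, the LFA-1 chain, had 1650, 1453, 946 and 384 CPM, and Cd44, the hyaluronan receptor, 139, 115, 99.7 and 28.7. Cd28, the costimulatory receptor, had 188, 140, 119 and 41.8 CPM. Plcd1, a phospholipase C, had the largest interaction among eligible synergistic genes: 17.4 to 21.9 CPM in IL-2 + IL-15, 5.99 to 6.36 with RA, 17.1 to 21.8 with TGFβ and 0.345 to 0.515 with both (−3.90 ± 0.23, adjusted p = 5.4e-07). Tnfrsf8 (CD30) and Lgals3 (galectin-3) fell to 0.736 and 13.5 CPM with both factors, from 7.89 and 211 with TGFβ alone. Among 18 immediate-early genes 6 were called, all lower (12.3% of tested genes). Atf3, a stress-induced factor of that list, had 11.6 CPM in IL-2 + IL-15, 7.03 with each single factor and 1.03 with both.

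Foxp3 had the largest interaction among eligible genes of the synergistic higher class. Its libraries had 1.31, 0.814 and 0.614 CPM in IL-2 + IL-15, 0.364, 0.564 and 0.476 with RA, 52.8, 57.2 and 53.1 with TGFβ and 236, 240 and 167 with TGFβ + RA. RA alone was not called (log2 change −0.91, adjusted p = 0.16), RA on top of TGFβ raised Foxp3 by 1.98, and the interaction was +2.89 ± 0.46 (adjusted p = 0.00068). Without TGFβ, Foxp3 had only 8 to 35 counts per library, so the size of its interaction rests partly on low levels. Cd4, the defining CD4 T cell gene, had 7 to 70 counts in any library against 18855 to 100235 for Cd8a. Of the other listed markers of CD4 and regulatory T cells, Cd40lg had 4 to 36 counts. Zbtb7b had 584 to 2197, Ikzf2 1247 to 4926, Tnfrsf18 1869 to 3443, Ctla4 3919 to 10414 and Il2ra 6871 to 18052. With Foxp3, the 8 markers summed to 782 to 1382 CPM, and the part of CD4 T cells was not tested. Of the exonic bases of Foxp3, 18.7% also lie in exons of the opposite strand and 18.6% in other exons of its own. The Foxp3 promoter (chrX:7580233-7580532, plus strand, GRCm38.p6) is shown because it holds the retinoic acid receptor recognition core AGGTCA on each strand, in capitals. That core is common: it was present in 12.5% of promoters of tested genes and in 14.7% of those of synergistic higher genes. The matches lie on opposite strands, so they do not form a direct repeat, and binding of the receptor was not tested.
Foxp3: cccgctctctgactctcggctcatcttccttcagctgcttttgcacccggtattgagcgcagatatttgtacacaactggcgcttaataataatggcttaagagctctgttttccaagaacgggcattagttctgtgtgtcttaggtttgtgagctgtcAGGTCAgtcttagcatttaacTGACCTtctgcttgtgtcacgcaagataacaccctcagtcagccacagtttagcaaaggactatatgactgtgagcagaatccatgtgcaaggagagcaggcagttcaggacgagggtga

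Other genes raised beyond all groups included regulators of differentiation. Tox, a factor of persistently stimulated T cells, had 6.89 CPM in IL-2 + IL-15, 6.51 with RA, 5.62 with TGFβ and 18.0 with both (+1.77 ± 0.26, adjusted p = 0.00038). Bcl6, a transcriptional repressor that acts in follicular and memory T cells, had 30.1 to 33.0, 28.2 to 30.4, 32.0 to 34.9 and 67.7 to 74.7 CPM. The IL-2 + IL-15 range overlapped each single-factor range and neither single factor was called (+1.15 ± 0.08, adjusted p = 2.0e-06). Hoxb4, a homeobox factor, rose to 11.6 CPM from 2.03 to 3.12 in the other group means. Xcl1, a chemokine for cross-presenting dendritic cells, had 129, 122 and 88.7 CPM with both and 10.8 to 40.9 in the other 9 libraries (+1.73 ± 0.46, adjusted p = 0.019). Tgm2, transglutaminase 2 and a known RA target, had 3.59, 54.0, 2.00 and 121 CPM in the order of groups above. Its call (+1.99 ± 0.56, adjusted p = 0.024) did not hold when TGFβ replicate 1, TGFβ replicate 2 or replicate 2 of IL-2 + IL-15 was left out. Gzmk, a granzyme of early memory cells, had 36.0, 37.3 and 37.7 CPM with both and 8.28 to 28.5 elsewhere (+1.47 ± 0.43, adjusted p = 0.030), and this call was lost in 6 of 12 removals of a single library and with the 9 libraries (+0.75).

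**Figure D4:**
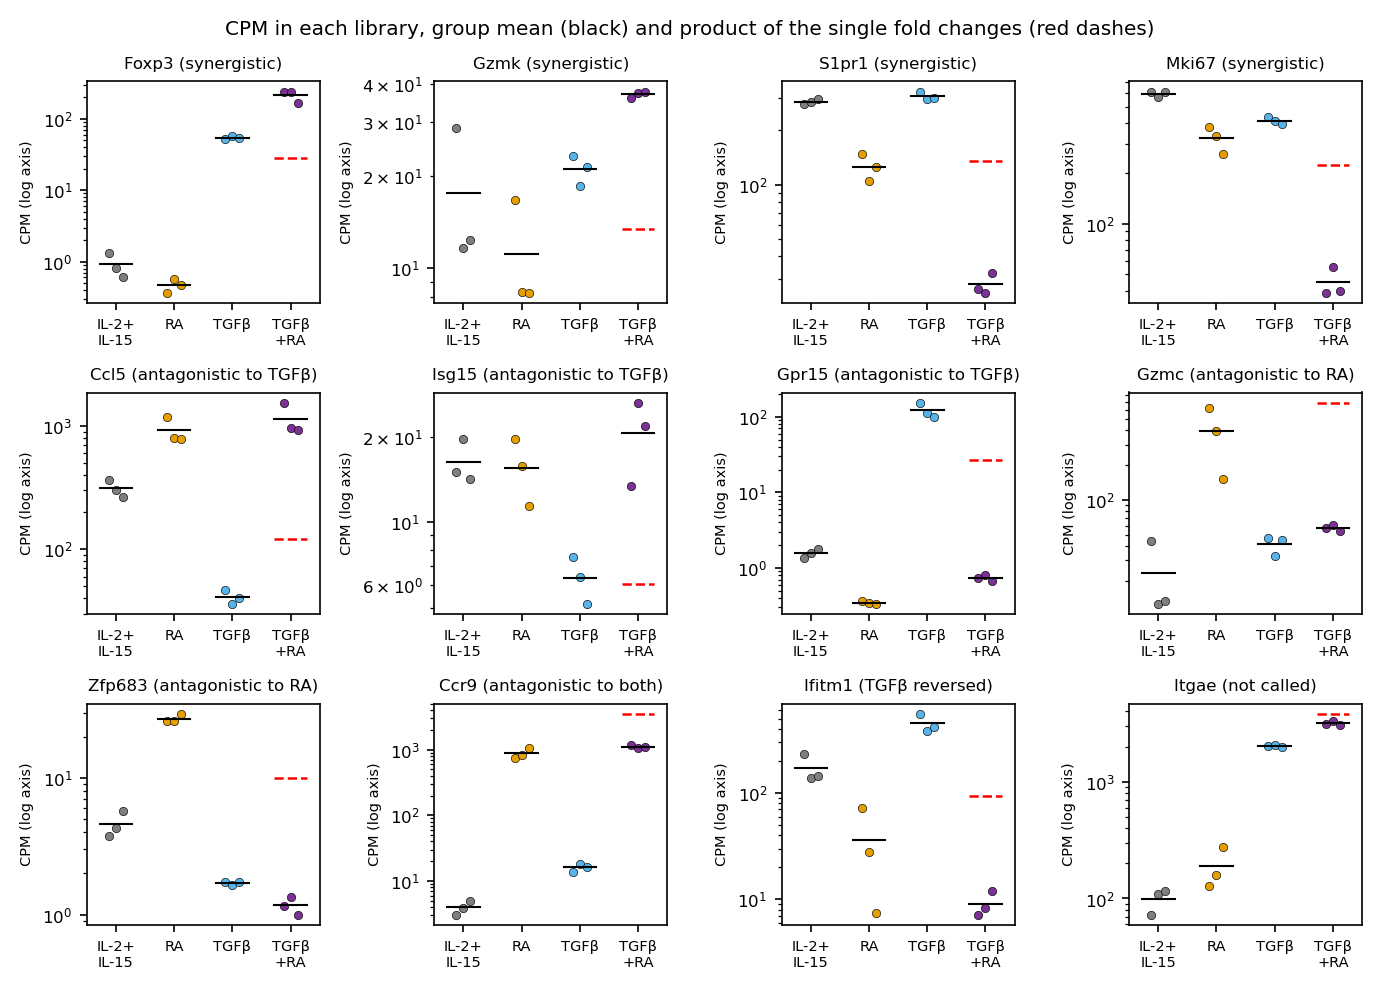
CPM on a log axis (y) of 12 genes in each library of the 4 groups (x); black bars are group means and the red dashes mark the level that multiplying the single fold changes gives for TGFβ + RA. Foxp3 and Ccl5 lie above the dashes, S1pr1, Mki67 and Gpr15 below, and Itgae near them.

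Most genes of the interferon-stimulated list ran the opposite way to the cell cycle list. Ifitm1, interferon-induced but outside that list, was called lower and is described below. Of 26 listed genes, which code for antiviral effectors and sensors, 21 were called, all higher, against 6.95% of tested genes, with a list median of +1.06. RA alone lowered 9 (14.3% of tested genes) and TGFβ alone lowered 16 (22.4%). In the presence of TGFβ, RA raised 21 (20.3%) and lowered 0 (22.7%). The 21 were spread over classes: 7 antagonistic to TGFβ, 3 antagonistic to RA, 3 with RA reversed, 3 with TGFβ reversed, 3 with both reversed and 2 synergistic. Usp18, a protease that dampens interferon signalling, had 44.0, 50.5 and 35.4 CPM in IL-2 + IL-15, 20.4, 20.7 and 16.7 with RA, 12.4, 13.2 and 13.6 with TGFβ and 18.6, 35.8 and 32.3 with both. Each factor alone lowered it and each raised it on top of the other, so that the interaction was +2.32 ± 0.27 (adjusted p = 6.4e-05), although the TGFβ + RA libraries overlapped the other groups. Isg15, a ubiquitin-like modifier, had 16.3 CPM in IL-2 + IL-15, 15.6 with RA, 6.38 with TGFβ and 20.5 with both (+1.76 ± 0.34). Oas2, which makes 2′-5′ oligoadenylate, had 6.93, 30.2 and 21.4 CPM with both and 1.68 to 2.57 with TGFβ (+2.98 ± 0.60, adjusted p = 0.0036). Mx1, an antiviral GTPase, stayed far below its level in IL-2 + IL-15 (86.1 CPM) with TGFβ (10.7) and with both (19.4). Irf7, the factor that amplifies interferon genes, had 127, 87.3, 92.5 and 125 CPM, the last being the observed level where multiplication gives 63.6. TGFβ + RA replicate 1 was the lowest of its group for all 5 of these genes. The count called higher was 19 to 22 over the removals of 1 library and 20 with the 9 libraries, and 1 member was called lower without IL-2 + IL-15 replicate 2.

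Promoters of this list were searched for GAAA repeated with 2 bases between, the core of the interferon-stimulated response element, on either strand. Of 22 promoters, 12 (54.5%) held it, against 3.08% for tested genes and 3.44% for all promoters. The motif was added after the results were seen. A list of interferon-stimulated genes would hold this element whatever TGFβ and RA did, so the share describes the list and not the treatments. The class shares that follow are not independent of it, since they include called members of the list. Among the classes with a positive interaction, the share was 15.4% for RA reversed, 12.5% for TGFβ reversed, 10.1% for antagonistic to TGFβ, 4.85% for antagonistic to RA and 4.75% for synergistic genes. It was 0 of 11 promoters for both reversed and 0 of 24 for antagonistic to both. Isg15 (chr4:156200769-156201068, minus strand) and Ifit1 (chr19:34640639-34640938, plus strand) are shown with the matches in capitals, Ifit1 being synergistic (10.4 to 15.5 CPM in IL-2 + IL-15 and 20.0 to 30.8 with both).
Isg15: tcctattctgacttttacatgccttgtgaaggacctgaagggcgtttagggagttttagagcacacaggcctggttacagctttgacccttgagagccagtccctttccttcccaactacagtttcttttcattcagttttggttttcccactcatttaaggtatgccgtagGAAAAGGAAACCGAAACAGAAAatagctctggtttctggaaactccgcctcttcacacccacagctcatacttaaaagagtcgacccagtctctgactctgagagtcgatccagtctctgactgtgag
Ifit1: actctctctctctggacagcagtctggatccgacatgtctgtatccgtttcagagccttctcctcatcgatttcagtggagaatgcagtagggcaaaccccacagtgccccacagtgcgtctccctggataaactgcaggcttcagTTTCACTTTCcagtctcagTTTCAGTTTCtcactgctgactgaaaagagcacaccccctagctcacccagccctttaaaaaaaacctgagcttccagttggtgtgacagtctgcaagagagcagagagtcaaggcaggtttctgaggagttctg

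Antagonism to TGFβ was seen where RA lifted a gene that TGFβ had lowered. Ccl5, a chemokine of cytotoxic cells, had 365, 304 and 263 CPM in IL-2 + IL-15, 1181, 802 and 777 with RA, 46.9, 35.9 and 40.1 with TGFβ and 1547, 962 and 920 with both. TGFβ + RA overlapped RA and lay far above TGFβ, and the interaction was +3.23 ± 0.30 (adjusted p = 8.7e-06). The TGFβ effect was −2.92 without RA and was not called with it (0.31, adjusted p = 0.19). Heatr9, the neighbouring gene with 3602 bases between them on chromosome 11, showed the same order: 25.8, 55.2, 2.42 and 49.5 CPM (+3.26 ± 0.24). Prf1, the pore-forming perforin, had 64.3, 138, 5.73 and 37.6 CPM, so that RA raised it by 2.71 with TGFβ and by 1.11 without (+1.60 ± 0.42, adjusted p = 0.016). Serpinb9 and Serpinb6b, serine protease inhibitors of the granule pathway 24182 bases apart on chromosome 13, had 14.3 and 10.7 CPM with TGFβ and 40.8 and 44.3 with both. Fgr, a SRC family kinase, had 6.82, 19.5, 2.22 and 23.0 CPM.

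In the other direction, RA removed increases made by TGFβ. Gpr15, a receptor that guides T cells to the large intestine, had 1.35, 1.59 and 1.78 CPM in IL-2 + IL-15, 0.364, 0.338 and 0.333 with RA, 154, 111 and 101 with TGFβ and 0.741, 0.816 and 0.662 with both. No library with RA exceeded 0.816 CPM, and the interaction of −5.16 ± 0.65 (adjusted p = 0.00012) was the largest among eligible genes antagonistic to TGFβ. Cldnd1, a claudin-like membrane protein whose gene lies 8839 bases from Gpr15 on chromosome 16, had 24.1, 18.9, 126 and 18.7 CPM (−2.41 ± 0.10, adjusted p = 2.1e-08). Il10, an inhibitory cytokine, had 22.4 to 27.7 CPM with TGFβ and 0 to 0.736 in the other 9 libraries. Its call (−3.07 ± 0.87, adjusted p = 0.025) rests on very low levels and was lost without RA replicate 2, without RA replicate 3 and with the 9 libraries. Klf2, the factor that drives S1pr1, had 89.0, 26.6, 185 and 17.7 CPM (−1.60 ± 0.41, adjusted p = 0.015). Thy1, a T cell surface glycoprotein, had 1200, 1153, 1657 and 1126 CPM. Cyb561, Zbtb46 and Jchain, a cytochrome, a dendritic cell transcription factor and the immunoglobulin joining chain, rose to 26.3, 10.2 and 6.43 CPM with TGFβ and had 1.74, 1.18 and 0.671 CPM with both.

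Antagonism to RA was seen in effector and residency genes that RA raised by more, or only, without TGFβ. Zfp683, which codes for the residency factor HOBIT, had 3.76, 4.31 and 5.71 CPM in IL-2 + IL-15, 26.0, 26.3 and 29.7 with RA, 1.72, 1.64 and 1.72 with TGFβ and 1.16, 1.35 and 0.993 with both. The RA effect was +2.56 without TGFβ and −0.53 with it (adjusted p = 0.054), and the interaction was −3.09 ± 0.25 (adjusted p = 3.9e-06). Gzmc, a granzyme of strongly stimulated cells, had 44.4, 12.6 and 13.4, then 627, 394 and 152, then 47.1, 32.7 and 45.2, then 57.4, 60.5 and 54.0 CPM in the same order (−3.60 ± 0.68, adjusted p = 0.0022). RA replicate 3 was the lowest of its group. Epas1, the hypoxia factor HIF-2α, had 11.3, 83.3, 2.17 and 1.15 CPM (−3.87 ± 0.61). Cxcr6, a chemokine receptor of resident cells, had 298, 666, 345 and 476 CPM (−0.70 ± 0.16), and Itga4, the α4 chain of the gut integrin, 157, 940, 115 and 287 CPM (−1.26 ± 0.19).

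In the 165 genes antagonistic to RA with a positive interaction, RA lowered the level without TGFβ and lowered it less, or not, with it. Ccr7, the lymph node homing receptor, had 289, 112, 342 and 240 CPM in IL-2 + IL-15, RA, TGFβ and both (+0.86 ± 0.20, adjusted p = 0.0078). Cd7, a T and NK cell surface protein, had 204, 72.1, 324 and 233 CPM (+1.03 ± 0.13). Il2ra, the high-affinity IL-2 receptor chain, had 569, 346, 570 and 478 CPM (+0.46 ± 0.10). Tlr7, a sensor of single-stranded RNA, had 5.24, 0.989, 13.9 and 11 CPM (+2.09 ± 0.36). Ramp1 and Vipr1, which serve in receptors for the neuropeptides CGRP and VIP, had RA effects of −5.08 and −4.48 without TGFβ and of −2.41 and −2.58 with it.

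A further 69 genes were raised by each factor alone and by less than the product together. Ccr9, the small intestine homing receptor and a known RA target, had 3.04, 3.95 and 5 CPM in IL-2 + IL-15, 743, 825 and 1075 with RA, 13.9, 18.0 and 16.5 with TGFβ and 1177, 1054 and 1105 with both. The observed mean of 1112 CPM lay below the 3552 CPM of multiplication and above the 893 CPM that adding the single differences gives (−1.66 ± 0.23, adjusted p = 0.00023). Cdh1, E-cadherin, had 5.43, 24.1, 303 and 287 CPM, and the RA effect with TGFβ present was −0.07 (adjusted p = 0.82). Nt5e, the adenosine-producing CD73, had 51.0, 120, 222 and 310 CPM (−0.76 ± 0.10). Hic1, a repressor induced by RA, had 3.54, 104, 12.2 and 135 CPM (−1.39 ± 0.25). Vipr2, a VIP receptor, had 0.623, 12.3, 14.5 and 74.1 CPM, against 286 for the product and 26.2 for the sum. Dhrs3, a retinaldehyde reductase, had 0.228, 10.6, 0.601 and 9.56 CPM. Its call (−1.46 ± 0.45, adjusted p = 0.038) was lost with a replicate block, in 6 of 12 removals of 1 library and with the 9 libraries. Among the 29 genes lowered by each factor and by less than the product together were Slamf6 (a receptor of stem-like cells; 102, 37.4, 23.6 and 24.5 CPM) and Myb (a factor of self-renewal; 68.9, 35.9, 24.6 and 32.5 CPM).

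Reversal of the TGFβ effect by RA was called at 168 genes, 119 of them lower, and reversal of the RA effect by TGFβ at 152, 101 of them lower; 28 more reversed both ways. Ifitm1, an interferon-induced membrane protein, had 233, 138 and 144 CPM in IL-2 + IL-15, 72.3, 27.6 and 7.52 with RA, 558, 386 and 420 with TGFβ and 7.15, 8.22 and 12.1 with both. The TGFβ effect was 1.40 without RA and −1.95 with RA (−3.36 ± 0.72, adjusted p = 0.0056), and the RA libraries spread over a wide range. Pdcd1, the inhibitory receptor PD-1, had 24.6, 19.6, 52.9 and 9.33 CPM (−2.21 ± 0.40, adjusted p = 0.0016). Irf4, a factor of T cell activation, had 187 to 200, 150 to 152, 233 to 238 and 56.8 to 60.3 CPM in the order of groups, with no overlap and an interaction of −1.64 ± 0.06 (adjusted p = 5.1e-09). Prdm1, which codes for BLIMP1, was raised by RA (0.81) and by TGFβ (0.69) from 25.2 CPM, and had 34.7 CPM with both. Fut7, which makes selectin ligands, had 33.4, 1.06, 43.8 and 0.333 CPM, and Ccr4, a skin homing receptor, 11.2, 10.5, 17.3 and 2.57 CPM. In the other direction, Cd69, which holds S1PR1 inside the cell, had 28.8, 28.7 and 24.9, then 27.5, 28 and 24.6, then 25.4, 21.8 and 20.8, then 50.4, 53.6 and 52.9 CPM. Only with both factors did all 3 libraries pass 50 CPM, and the interaction was +1.24 ± 0.12 (adjusted p = 1.0e-05). Plxna1, a semaphorin receptor, had 13.4, 37.6, 6.39 and 45.7 CPM, and Dtx1, a Notch pathway ubiquitin ligase, 23.1, 22.3, 11.2 and 74.1 CPM.

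Genes with a reversed RA effect included a gap junction channel, regulators and homing genes. Gja5, connexin 40, had 2.44, 0.895 and 1.60 CPM in IL-2 + IL-15, 75.0, 31.9 and 10.4 with RA, 213, 188 and 194 with TGFβ and 81.4, 97.6 and 88.1 with both. The RA effect was +4.56 without TGFβ and −1.15 with it (−5.71 ± 0.74, adjusted p = 0.00014). Ahr, the aryl hydrocarbon receptor, had 0.985, 2.46, 20.7 and 13.8 CPM (−1.90 ± 0.26). Rbpj, the DNA-binding partner of Notch, had 328, 503, 328 and 181 CPM (−1.47 ± 0.09), and Tnfrsf9, the costimulatory receptor 4-1BB, 30.9, 53.4, 31.6 and 15.7 CPM. Itgb7, the β7 chain that pairs with α4 or CD103, had 975, 1191, 1452 and 1157 CPM (−0.61 ± 0.08). Cxcr5, a follicular homing receptor, went the other way: its RA effect was −0.74 without TGFβ and 0.64 with it. Tnfsf11 (RANKL), Itpr1 (a calcium release channel) and Itsn1 (an endocytic scaffold) were raised by each factor alone and lowered by each on top of the other; Itsn1 had 9.76, 16.2, 21.7 and 1.01 CPM (−5.14 ± 0.40, adjusted p = 3.6e-06). The number of genes with a reversed RA effect depends on RA replicate 3: without it 228 were called higher and 214 lower, against 51 and 101.

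MHC class II genes, which present antigen to CD4 T cells, were raised by TGFβ at 8 of 10 (20.7% of tested genes), and 6 of the 10 were called lower for the interaction (12.3% of tested genes). H2-Eb1 had 1.17, 2.43, 23.9 and 4.32 CPM (−3.47 ± 0.30, adjusted p = 5.6e-06), and H2-Ab1, a neighbour in the same cluster on chromosome 17, 18.8, 31.2, 32.4 and 23.4 CPM (−1.20 ± 0.13). H2-Aa, which lies between them, had 0.674, 0.553, 27.0 and 4.93 CPM. Its call (−2.04 ± 0.64, adjusted p = 0.041) was lost in 7 of 12 removals of 1 library and with the 9 libraries. H2-Oa, a modulator of peptide loading, had 78.4, 76.9, 105 and 44.7 CPM. Without RA replicate 3 the list had 4 genes lower and 0 higher. B cells and myeloid cells also express these genes. The B cell genes Ms4a1 and Pax5 had 0 to 1 counts in every library, while the summed level of 10 B cell markers was 318 to 423 CPM in IL-2 + IL-15, 417 to 648 with RA, 1412 to 1445 with TGFβ and 1880 to 2372 with both. Ighm made up nearly all of that sum (8005 counts in IL-2 + IL-15 replicate 1 and 44109 to 65322 with both), and Cd22 went the other way, with 47 to 67 counts in IL-2 + IL-15 and 0 to 2 with both. The 17 myeloid markers summed to 94.4 to 158, 223 to 380, 29.6 to 30.6 and 69.1 to 79.9 CPM in the same order. Itgax was the largest part in every library (412 to 9813 counts), with TGFβ followed by Zbtb46 (236 to 278 counts). In TGFβ + RA replicate 3 Lyz2 had 323 counts, S100a8 97 and S100a9 177, against at most 23, 0 and 1 in any other library. Gamma delta T cell markers summed to 165 to 226, 190 to 310, 442 to 485 and 623 to 713 CPM in the same order. Tcrg-C2 was their largest part in every library, while Trdc had 1026 to 1213 counts in IL-2 + IL-15 and 241 to 756 with both. NK cell markers summed to 127 to 201, 104 to 206, 41.6 to 52.7 and 30.8 to 45.4 CPM, with Eomes the largest part in every library. No tested marker of either list was called for the interaction. The part of other cells in these results was not tested.

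Of all tested genes 12.3% were called lower and 6.95% higher, so lower calls outnumbered higher ones over all genes too, and the lists that follow are set beside those shares. Of 40 tissue residency genes 18 were called, 4 higher and 14 lower (median −0.36), and of 27 circulation and egress genes 13, 3 higher and 10 lower (median −0.12). All 7 tested gut homing genes were called, 2 higher and 5 lower. Of 17 inhibitory receptors and associated genes 8 were called lower, and the 1 called higher was Tox, a transcription factor and not a receptor. Among 18 costimulatory receptors 8 were called lower and 0 higher, and among 48 transcription factors of T cell differentiation 16 lower and 5 higher. Integrins and adhesion genes gave 9 lower and 2 higher of 25, cytotoxic molecules 4 and 4 of 22, cytokines and chemokines 4 lower and 2 higher of 17, and cytokine receptors 4 and 4 of 25. Skin homing genes gave 4 lower and 1 higher of 10, purine receptors and ectoenzymes 5 lower and 1 higher of 16, and NK receptors 2 lower and 1 higher of 19. The lower calls among cytotoxic molecules and cytokine receptors are near the 12.3% of all tested genes. Their higher calls, 4 of 22 and 4 of 25, stand above the 6.95%, and 36.4% and 32% were called in all, against 19.3%. Such counts are small and were not tested. Of the NK receptors 15.8% were called, against 19.3%, so nothing is read from that list. Within the TGFβ pathway 7 of 31 genes were called lower and 2 higher: Smurf2, an inhibitory ubiquitin ligase that TGFβ induces, had 49.1, 57.1, 122 and 91.6 CPM. Among retinoid receptors, metabolism and target genes 6 of 16 were called lower and 1 higher, Tgm2. Acvr1, a type I receptor of the family, had 3.52 to 4.89 CPM with TGFβ and 0.125 to 0.159 with both. Of the AHR list 1 of 5 was called, Ahr itself.

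**Figure D5:**
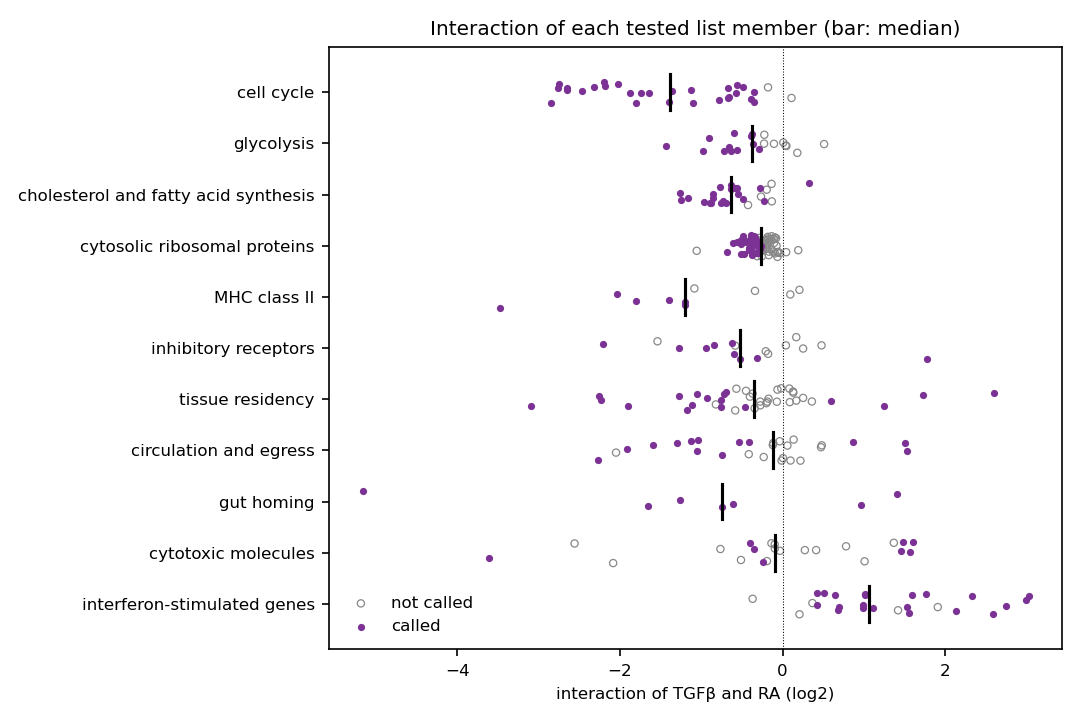
Interaction in log2 units (x axis) of every tested member of 11 gene lists (y axis); filled points were called, open points were not, and black bars are medians. Cell cycle genes centre on −1.38 and interferon-stimulated genes on +1.06, while the residency and egress lists spread on both sides of 0.

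Several defining genes of the model were not called for the interaction. Itgae, which codes for CD103, had 72.3, 109 and 117 CPM in IL-2 + IL-15, 129, 157 and 277 with RA, 2021, 2062 and 2001 with TGFβ and 3106, 3297 and 3072 with both. Each group lay above the one before without overlap, and the interaction was −0.28 ± 0.31 (adjusted p = 0.58), changing sign to +0.10 without RA replicate 3. Itga1 (CD49a) had 14.3, 73.4, 12.1 and 66.3 CPM (+0.09 ± 0.36, adjusted p = 0.90). Gzma, a granzyme, had 181, 866, 627 and 2801 CPM against 2996 for the product (−0.10 ± 0.43). P2rx7, an ATP-gated channel, had 2.00, 611, 1.76 and 299 CPM (−0.82 ± 0.29, adjusted p = 0.064), and DESeq2's Wald test called it. Tbx21 and Eomes, the T-box factors, had TGFβ effects of −1.5 and −1.84 without RA and of −1.59 and −1.78 with it. Runx3, Tcf7, Gzmb and Ifng were not called (interactions −0.19, +0.48, −0.77 and −1.36). Without RA replicate 3, Tcf7 (+0.87), Gzmb (−1.04) and P2rx7 (−0.92) were called.

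Whether a combination exceeds its parts depends on the scale. On the linear CPM scale, where the single differences add, the sign of the interaction was opposite at 72 of 2702 genes: 47 synergistic lower genes and 25 antagonistic ones. Ly6c2 is 1 of them, since adding the differences gives a level below 0 (−113 CPM), as it does for Wdr95 (−5.34 CPM).

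No gene (0) had at least 5 CPM with both factors and fewer than 10 counts over the libraries of each other group, while 9 genes had fewer than 10 counts over the TGFβ + RA libraries and at least 5 CPM in another group. The 5 with the highest level, Endou, Cd163l1, Meg3, Gzmg and 5830411N06Rik, were not called, and their fitted interactions depend on the prior count. Stra6 and Il24 were called but had 0 counts in IL-2 + IL-15 and in TGFβ + RA, respectively, so no fold is given. Stra6, the retinol transporter, had 1.91, 1.96 and 1.19 CPM with RA and at most 0.123 in the TGFβ groups. Il24 had 2.49 to 4.16 CPM with TGFβ.

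The retinoic acid receptor core AGGTCA was present in 12.5% of promoters of tested genes, 14.7% of synergistic higher and 11.4% of synergistic lower genes, and the variant core AGTTCA in 9.66%, 10.9% and 8.78% of the same. Direct repeats of these cores with 2 or 5 bases between were found in 1 and 3 of 12221 promoters of tested genes, and in 0 promoters of called genes. The SMAD motif CAGAC was in 47.4% of promoters of tested genes and ranged over the classes and directions from 16.7% (both reversed lower, 12 promoters) to 63.6% (both reversed higher, 11 promoters). The AP-1 motif TGAGTCA was in 3.56% of promoters of tested genes and in 0% to 9.09% by class and direction. The motifs were searched on both strands, and the cores also occur within their direct repeats. The RefSeq table held 9590 of the 14009 tested genes.

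In GRCm38, with GENCODE M21 gene bounds, Foxp3 lies at chrX:7573644-7595245, S1pr1 at chr3:115710433-115715072, Mki67 at chr7:135689784-135716361, Ccl5 at chr11:83525778-83530518, Gpr15 at chr16:58717433-58719070, Zfp683 at chr4:134053838-134058996, Ccr9 at chr9:123678439-123784330, Cd69 at chr6:129267325-129275436, Usp18 at chr6:121245906-121270917, Irf4 at chr13:30749226-30766976 and Itgae at chr11:73090583-73147446. Values are counts over exons of the whole gene. The strand setting of the counting is not given in the sources used here, so reads of genes with overlapping exons may be shared: exons of the opposite strand cover 19.0% of exonic bases of Ccr9, 18.7% of Xcl1, 21.8% of Tgm2 and 22.8% of H2-Oa.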

How the data were processed

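RNA was extracted with the RNeasy Micro kit and made into TruSeq stranded mRNA libraries, per the labels' protocols. The authors deposited a table of raw counts per gene for each library; STAR, featureCounts and GRCm38 are named in the submitters' processing notes, with no version. The strand setting and annotation are not given in the sources used here. All members and gene lists were chosen with earlier results of these data known. Motifs GAAA repeated and TTTGAA, and the 9-library alternative, were added after seeing the data.

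Counts were tested with edgeR 4.0.16 (R 4.3.3) by the quasi-likelihood test with TMM normalization, filterByExpr (minimum count 10), 1 mean per group over all 12 libraries (8 residual degrees of freedom) and Benjamini-Hochberg adjustment over 14009 genes. The standard error is the log2 fold change divided by the square root of F. The script was tested on simulated data. Tested genes took at least 99.9% of counts in each library. The depth, 18300206 to 33477037 counts, limits the precision for genes near 1 CPM. Alternatives were DESeq2 1.42.0 size factors and Wald test, no filter, a replicate block, a minimum fold of 1.5 (glmTreat), an adjusted p under 0.01 and removal of each library. Named genes were a fixed panel; the 8 (synergistic) or 5 (other classes) largest interactions per class and direction with a group mean of at least 10 CPM and 10 counts in every group; up to 5 genes at the count floor; and up to 3 genes with the smallest p per list. Hmmr, Nuf2 and the other examples come from this rule. Promoters are from RefSeq (GRCm38.p6), which held 9590 tested genes. Gene bounds are from GENCODE M21, which held 13942 of them.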

Additional observations from a re-analysis of the deposited data

Results flagged for a closer look

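At 2702 genes the effect of RA differed between cultures with and without TGFβ, by the test of that difference itself (the interaction term of edgeR's quasi-likelihood test). At 180 of them RA had called effects of opposite direction without and with TGFβ. At 196 of them TGFβ had called effects of opposite direction without and with RA.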

How the results depend on the processing

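Of the 2702 calls, 2679 were kept in the same direction with DESeq2 size factors, 2606 with DESeq2's Wald test, 2431 with no filter and 2646 with a replicate block, and 0 were called in the opposite direction under any alternative run. Same-numbered libraries had deviations correlated at −0.0039 to 0.341 over 18 pairs, 10 of them over 0.1. Pairs of other numbers ranged from −0.301 to 0.163 over 36 pairs, 1 of them over 0.1. By these correlations 12 of 12 libraries were closest to their own number. The main fit had no block because the labels do not state what a replicate number shares across groups. With a replicate block there were 3072 calls, 1185 higher and 1887 lower. Of these, 428 were reversed, and 45 were antagonistic to both and higher. Unclassified lower genes numbered 80 with no filter and 81 with the Wald test.

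For a change of at least 1.5-fold (glmTreat) there were 586 calls, 83 higher and 503 lower. By class, higher and lower, these were 21 and 338 synergistic, 12 and 34 antagonistic to RA, 23 and 53 to TGFβ and 1 and 12 to both. The others were 2 and 2 RA reversed, 0 and 15 TGFβ reversed, 0 and 0 both reversed, and 24 and 49 unclassified. At an adjusted p under 0.01 there were 1358 calls, 373 higher and 985 lower: 167 and 638 synergistic, 60 and 79 antagonistic to RA, 65 and 122 to TGFβ, 9 and 25 to both, 16 and 35 RA reversed, 17 and 59 TGFβ reversed, 0 and 5 both reversed, 39 and 22 unclassified. With the 9 libraries, a choice made after seeing the data, there were 4224 calls, 1718 higher. In the same order, 558 and 1110 were synergistic, 442 and 453 antagonistic to RA, 154 and 234 to TGFβ and 63 and 142 to both. The others were 269 and 222 RA reversed, 61 and 166 TGFβ reversed, 35 and 41 both reversed, and 136 and 138 unclassified. The first settings are stricter by construction; for the 9 libraries the cause was not tested.

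Removal of each library in turn gave 2040 (without TGFβ replicate 3) to 4158 calls (without RA replicate 3), 583 to 1654 higher and 1383 to 2504 lower. Class counts ranged from 271 to 581 and 811 to 1209 (synergistic higher and lower), 79 to 421 and 109 to 417 (antagonistic to RA), 89 to 166 and 162 to 247 (to TGFβ), 22 to 59 and 52 to 124 (to both), 25 to 228 and 61 to 214 (RA reversed), 29 to 62 and 93 to 163 (TGFβ reversed), 4 to 32 and 9 to 37 (both reversed), and 25 to 105 and 31 to 93 (unclassified).

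Of 157 named genes, those that changed sign were not called. Over the removals of 1 library, Itga1 ranged from −0.2043 to 0.2942 (−0.1744, −0.0106 and −0.0001 also below 0), Eomes from −0.1606 to 0.2415 (−0.1535, −0.0531, −0.0082 and −0.0759 also below 0), Itgae from −0.5068 to 0.0951 (without RA replicate 3), Gzma from −0.4362 to 0.5224 (without RA replicate 1) and 5830411N06Rik from −2.3748 (without TGFβ + RA replicate 3) to 2.1425. With the 9 libraries the values were −0.4331 for Itga1, −0.4811 for Eomes, 0.2998 for Itgae and −1.737 for 5830411N06Rik.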
